A study of Homo sapiens with 4 samples.

Results

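The integrins, cadherins and claudins are 3 families of membrane proteins through which cells hold on to matrix and to each other. Genes were taken by symbol from the platform annotation: integrin alpha and beta chains, numbered cadherins and numbered claudins, leaving out ITGA2B. This gave 59 of the 14232 genes measured: 12 integrin alpha chains, 8 beta chains, 21 cadherins and 18 claudins. Each was read by 1 transcript cluster annotated to it alone, a cluster being the set of probes that the array assigns to a gene. RefSeq lists 72 protein-coding genes with such symbols. Of the other 13, ITGA1, ITGA4, ITGAE, ITGAM, CLDN2 and CLDN10 lay only on clusters annotated to several genes. None of the 13 was analysed here. CLDN7, CLDN12, ITGAX and ITGB1, among the 59, are also named on clusters annotated to several genes, whose values were not analysed.

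Total RNA came, by the labels, from 2 human cell lines, HepG2, a hepatocellular carcinoma line whose hepatocyte markers were not kept on these arrays, and K562, a chronic myeloid leukaemia line that grows in suspension. In each line, cells carried a stably transfected plasmid with an siRNA either against ADAR1 (ADARkd), the adenosine deaminase that edits double-stranded RNA, or of scrambled sequence (SCR). The siRNA against ADAR was the most effective of several tested, and no source used here says whether the transfected cells were pools or single clones. There was 1 exon array for each line and arm, 4 in all, so no group was replicated and no difference within a line has a test.

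An integrin is a heterodimer of an alpha and a beta chain that binds matrix or a counter-receptor outside the cell and, through talin and kindlin, the actin cytoskeleton inside it. Classical cadherins bind like cadherins on the neighbouring cell and are anchored to actin by catenins. Claudins form the strands of tight junctions, and the mix of claudins sets how tightly an epithelial sheet is sealed. Adherent epithelial cells carry members of all 3 families, while blood cells rely chiefly on integrins.

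Median intensities of the arrays were 36.1 to 36.96. ADAR, the target, stood at 8.96 (SCR) and 7.27 (ADARkd) on the log2 scale for HepG2 and at 7.99 and 6.78 for K562, which leaves 31.0% and 43.2% of the SCR intensity. Kept, below, means that a gene's average log2 level over both arms of a line reached the median over all genes, 5.31 for HepG2 and 5.28 for K562. Of 7 measured hepatocyte markers, among them ALB, AFP and APOB, 0 were kept on the arrays labelled HepG2, and their summed intensities were 78.6 and 79.1, against 84.5 and 91.1 in K562. The label of these arrays is therefore given as a label throughout. Of 7 erythroid markers, 6 were kept in K562 and 0 on the arrays labelled HepG2. Of 7 endothelial markers 0 were kept in either line.

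Most of the adhesion genes were dim in both lines. Of the 59, 18 were kept in at least 1 line: 14 on the arrays labelled HepG2, 10 in K562 and 6 in both. By family, 5 of 12 integrin alpha chains, 4 of 8 beta chains, 2 of 21 cadherins and 7 of 18 claudins were kept somewhere. The 41 kept in neither line stood between 2.60 and 5.41 on the log2 scale in every array. At such levels background can set the value, and signal over background was not analysed here.

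**Figure D1:**
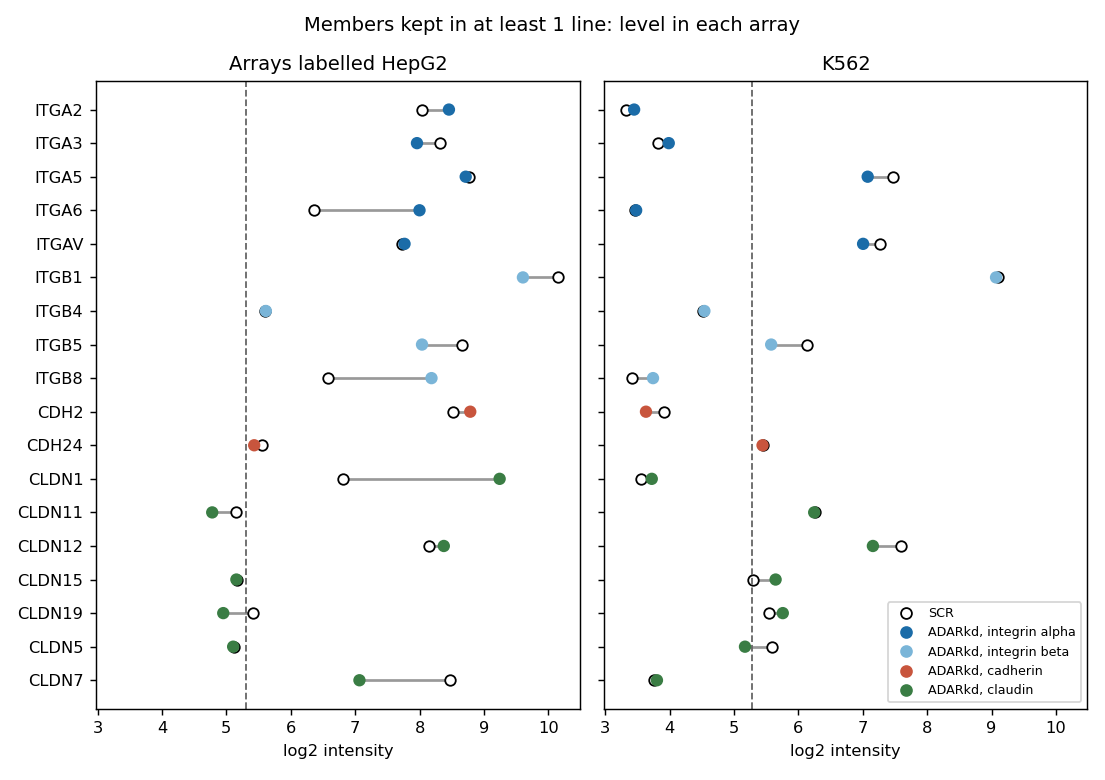
Log2 intensity of the 18 genes kept in at least 1 line, with 1 open circle for the SCR array and 1 filled circle for the ADARkd array of each line, coloured by family; the dashed line is the level that kept a gene. On the arrays labelled HepG2, CLDN1, ITGA6 and ITGB8 stand to the right in ADARkd and CLDN7 to the left, while in K562 no pair of circles is more than 0.56 apart.

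First, the ADARkd and SCR arrays labelled HepG2 were compared gene by gene. CLDN1, ITGA6 and ITGB8 were at least 2-fold higher in ADARkd, and CLDN7 was at least 2-fold lower. These are 3 and 1 of the 14 genes kept there. Of all 7116 genes kept on these arrays, 2.46% were at least 2-fold higher and 1.57% at least 2-fold lower. After quantile normalization or cyclic loess, which move the median over kept genes from 0.11 to 0.01, the split over all kept genes changed from 175 higher and 112 lower to 124 and 140, or 132 and 135. The same 4 adhesion genes were past 2-fold under both. The median difference of the 14 was 0.02, and the central 95% of kept genes ran from -0.85 to 0.99.

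Among the integrin alpha chains, ITGA6 differed most. This chain pairs with beta 1 or beta 4 to bind laminin, and with beta 4 it forms hemidesmosomes. ITGA6 stood at 6.36 in SCR and 7.999 in ADARkd on the arrays labelled HepG2, a difference of 1.64 or 3.11-fold, and was number 26 from the highest of the 7116 kept genes. In K562 it stood at 3.46 and 3.48, under the filter level. The high array was thus the ADARkd array labelled HepG2, and both K562 arrays were dim.

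The other laminin and collagen receptors differed little between the arms. ITGA3, a laminin receptor of epithelia, stood at 8.31 (SCR) and 7.96 (ADARkd) on the arrays labelled HepG2, a difference of -0.35. ITGA2, of the collagen receptor, stood at 8.04 and 8.46, a difference of 0.42. In K562 both were under the filter level, at 3.82 and 3.99 for ITGA3 and 3.32 and 3.45 for ITGA2. The remaining alpha chains of this kind, ITGA7, ITGA10 and ITGA11, were kept in neither line.

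Of the alpha chains that recognise the RGD sequence in fibronectin and vitronectin, ITGA5 and ITGAV were kept in both lines and ITGA8 in neither. ITGA5, of the main fibronectin receptor, stood at 8.77 (SCR) and 8.72 (ADARkd) under the HepG2 label, and at 7.46 and 7.08 in K562. ITGAV, which pairs with several beta chains, stood at 7.73 and 7.77, and at 7.26 and 7.01. Their differences on the arrays labelled HepG2 were -0.06 and 0.04, against 1.64 for ITGA6. The value of ITGAV ran down to -0.10 under other settings. ITGA9 and the leukocyte chains ITGAL and ITGAX were kept in neither line. In all, the 7 alpha chains kept in neither line stood between 2.86 and 4.59.

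Beta chains decide, together with the alpha chain, which ligand is bound. ITGB8, the partner of the alpha V chain in a receptor that activates latent TGF-beta, stood at 6.57 (SCR) and 8.19 (ADARkd) on the arrays labelled HepG2. That is a difference of 1.61, 3.06-fold, number 29 from the highest. In K562 it stood at 3.42 and 3.74, under the filter level. Its alpha partner ITGAV had no such difference on the arrays labelled HepG2.

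The most widely used beta chain, ITGB1, stood lower in ADARkd there. Its levels were 10.15 (SCR) and 9.60 (ADARkd), a difference of -0.54, and 9.10 and 9.07 in K562. ITGB5, a second partner of the alpha V chain and a vitronectin receptor, stood at 8.65 and 8.04 on the arrays labelled HepG2 and at 6.14 and 5.58 in K562. Its differences were -0.61 and -0.56, the same direction in both lines. ITGB4, the hemidesmosome partner of ITGA6, stood at 5.61 in both arms on the arrays labelled HepG2, with a difference of 0.01, and at 4.51 and 4.54 in K562.

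The chains that pair with each other thus had unlike differences: ITGA6 stood 3.11-fold higher while ITGB1 was at 68.6% of its SCR intensity and ITGB4 at 100.4%. The leukocyte chains ITGB2 and ITGB7, the platelet chain ITGB3 and the epithelial chain ITGB6 were kept in neither line, between 3.15 and 4.66.

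Among the cadherins, the arrays labelled HepG2 carried N-cadherin, and E-cadherin was under the filter level. CDH2, N-cadherin of mesenchymal and neural cells, stood at 8.52 (SCR) and 8.79 (ADARkd), a difference of 0.27. CDH1, E-cadherin, the main cadherin of epithelia, stood at 3.29 and 3.21 on those arrays and at 3.45 and 3.46 in K562. In K562 CDH2 stood at 3.91 and 3.63. CDH24, a type II cadherin, was the other cadherin kept, at 5.55 and 5.43 on the arrays labelled HepG2 and 5.45 and 5.44 in K562, close to the filter level in all 4.

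Of the 19 cadherins kept in neither line, CDH12, a type II cadherin of the nervous system, had the largest difference. It stood at 5.29 in the SCR array labelled HepG2, just under the filter level, and at 3.01, 2.97 and 3.02 in the other 3 arrays. The difference of -2.28 rests on that 1 array. CDH5, the cadherin of endothelium, stood at 3.51 and 4.16 on the arrays labelled HepG2 (0.64) with 0 of 7 endothelial markers kept. CDH3, P-cadherin, stood at 5.05 and 5.41 there.

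The largest difference higher and the largest lower among the kept adhesion genes were both in claudins. CLDN1, a sealing claudin of skin and other barrier epithelia, stood at 6.81 (SCR) and 9.24 (ADARkd) on the arrays labelled HepG2, and at 3.55 and 3.72 in K562. The difference was 2.44 on the arrays labelled HepG2, 5.42-fold, number 5 from the highest of 7116 genes. CLDN7, a claudin of many epithelia that is also found along the lateral membrane, went the other way, at 8.47 (SCR) and 7.07 (ADARkd). Its difference of -1.41 left 37.7% of the SCR intensity and was number 54 from the lowest. In K562 CLDN7 stood at 3.77 and 3.80, under the filter level.

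CLDN12, a broadly expressed claudin, was kept in both lines. It stood at 8.14 (SCR) and 8.38 (ADARkd) under the HepG2 label and at 7.59 and 7.16 in K562, differences of 0.23 and -0.43. The epithelial claudins CLDN3 (5.12 and 4.90 on the arrays labelled HepG2) and CLDN4 (3.81 and 3.63) were under the filter level, as were CLDN6, CLDN8, CLDN9, CLDN14, CLDN16, CLDN17, CLDN18, CLDN20 and CLDN23. CLDN5, CLDN11, CLDN15 and CLDN19 were kept in K562 alone, and their levels on the arrays labelled HepG2 ran from 4.78 to 5.41.

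Markers of other cell types also differed between these arrays. Of 9 fibroblast markers 5 were kept on the arrays labelled HepG2. COL3A1, FAP and COL1A1 were at least 2-fold lower in ADARkd, at -2.42, -1.66 and -1.12, as were 1.57% of all kept genes. LUM (0.78) and DCN (0.64) were higher, so the summed intensity of the 9 went from 1309 to 1680; in K562 it was 143 and 156 with 0 kept. Of 8 epithelial markers 4 were kept on the arrays labelled HepG2: KRT19 differed by 1.32, KRT8 by 0.77, KRT18 by 0.70 and KRT7 by 0.25. EPCAM stood at 3.98 and 4.01 there, and the sum of the 8 went from 1527 to 2272. In K562 4 of the 8 were kept too, with sums of 1150 and 1054, and EPCAM stood at 7.88 and 7.56. Between the lines KRT7 was called higher on the arrays labelled HepG2 and EPCAM in K562, as were 14.7% and 10.3% of all genes fitted. Each was under the filter level in the other line and entered the fit only through the line where it is high. The part of these markers in the differences of the adhesion genes was not tested. Array and arm cannot be told apart, since each arm of a line is 1 array.

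In K562 no adhesion gene was past 2-fold: 0 of the 10 kept, where 0.155% of all 7116 kept genes were. The differences ran from -0.56 for ITGB5 to 0.35 for CLDN15. Of the 10, 8 stood lower in ADARkd, where 66.7% of all kept genes did; after quantile normalization 5 did (50.1%) and after cyclic loess 7 (54.8%). The median of the 10 was -0.14 against -0.07 for all kept genes, whose central 95% ran from -0.45 to 0.30. ITGB5, number 67 from the lowest, and CLDN15 lay outside that range. CLDN12 and CLDN5, at -0.43 each, and ITGA5, at -0.39, lay inside it.

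CLDN15, a claudin of cation pores in the intestine, stood at 5.29 in SCR and 5.65 in ADARkd in K562 and was number 121 from the highest. CLDN5, the claudin of endothelial tight junctions, stood at 5.60 and 5.17, with its ADARkd level under the filter level. CLDN11, known from myelin and testis, stood at 6.26 and 6.25. CLDN19, of the kidney tubule, stood at 5.54 and 5.76. Outside the kept genes CLDN4 had the largest difference in K562, 0.69, from 3.72 to 4.41.

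**Figure D2:**
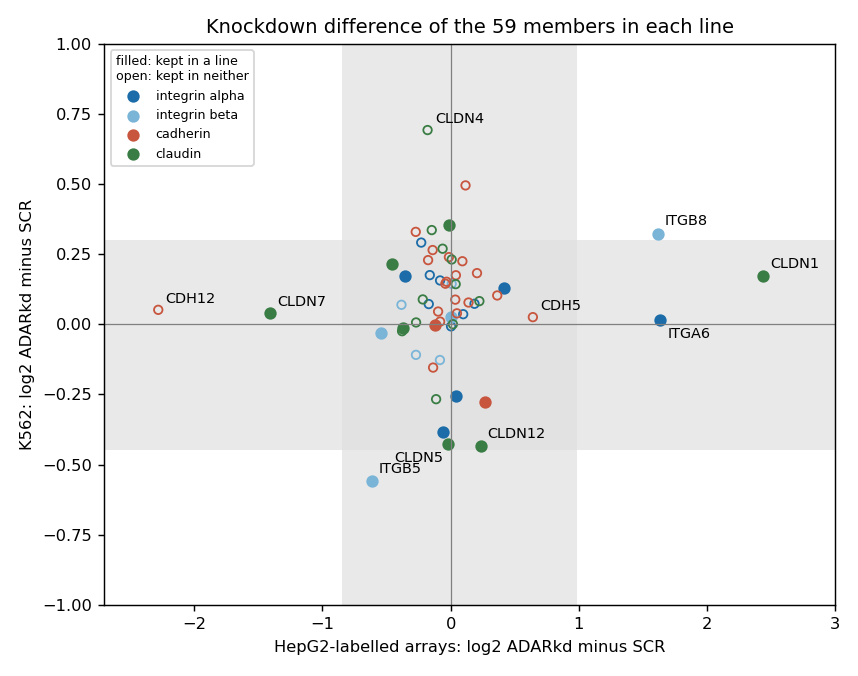
Log2 difference ADARkd minus SCR on the arrays labelled HepG2 (x axis) and in K562 (y axis) for the 59 genes; filled circles are kept in a line, open circles in neither, and the grey bands hold the central 95% of all genes kept in each line. CLDN1, ITGA6 and ITGB8 lie far to the right and CLDN7 and the dim CDH12 to the left, and ITGB5 lies lowest at -0.61 and -0.56.

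The effect shared by both lines was fitted with limma on the genes kept in both. No gene passed at an adjusted p under 0.05: 0 of 6204 (0%), with 179 at an unadjusted p under 0.05, or 174 with limma's variance trend left out. Of the 6 adhesion genes in that fit, ITGB5 had the lowest p, with a shared difference of -0.59 ± 0.21 (SE, 2 arrays per arm; limma unadjusted p = 0.0201, adjusted p = 0.9996). ITGB1 followed at -0.29 ± 0.20, and ITGA5, ITGAV, CLDN12 and CDH24 were between -0.22 and -0.06. The fit has 1 residual degree of freedom, so these p-values are approximate. Whether the 2 lines' differences differ from each other leaves no residual and was not tested.

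The line comparison described the adhesion repertoire in which ADAR was lowered. On the arrays labelled HepG2, 10 adhesion genes were higher than in K562: CDH2, ITGA2, CLDN1, ITGA3, CLDN7, ITGB8, ITGA6, ITGB5, ITGA5 and ITGB4. In K562, CLDN11 was higher. Calls were by limma at an adjusted p under 0.05 and at least 2-fold, over 8028 genes kept in either line; of these 14.7% were called higher on the arrays labelled HepG2 and 10.3% higher in K562. Of the 11 calls, 9 were of genes kept in 1 line alone, which entered the fit only through the line where they are high, so the split of 10 against 1 is no support for a direction. Of the 6 adhesion genes kept in both lines, ITGB5 and ITGA5 were called higher on the arrays labelled HepG2 and 0 in K562; of all 6204 genes kept in both, 8.25% and 5.85% were.

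The K562 minus HepG2 difference of CDH2, dim in K562, was -4.88 ± 0.22 (SE, 2 arrays per line; limma adjusted p = 9.94e-06), a 29.4-fold lower measured intensity. For ITGA2 it was -4.86 ± 0.20 and for ITGA3 -4.24 ± 0.22. For CLDN1 the difference was -4.39 ± 0.47 (limma adjusted p = 0.00035), with -3.26 between the SCR arrays and -5.52 between the ADARkd arrays. The K562 levels of CLDN1 were alike in both arms, and its levels under the HepG2 label were not. For CLDN7 it was -3.99 ± 0.33, with -4.71 between the SCR arrays and -3.26 between the ADARkd arrays. ITGB8 stood at -3.80 ± 0.31 and ITGA6 at -3.71 ± 0.37.

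Of the 10, all but ITGB5 and ITGA5 were under the filter level in K562, at means of 3.38 to 4.53, so the sizes of 8 of the 10 differences are uncertain. ITGB5 (-2.49 ± 0.20) and ITGA5 (-1.48 ± 0.21, limma adjusted p = 0.00135) were kept in both lines. ITGB4 (-1.08 ± 0.21) lost its call with log2(value + 16) and when the 75th percentile was the filter. CLDN11, at 1.29 ± 0.21 (limma adjusted p = 0.00256), lost its call under the same settings.

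Of the 20 integrin chains analysed, K562 kept ITGA5, ITGAV, ITGB1 and ITGB5, the chains of the fibronectin and vitronectin receptors. ITGA2B, the platelet chain left out by the rule, was kept there too, at 5.65 and 5.23, and chains such as ITGA4 were not analysed here. ITGAV and ITGB1 were not called, at -0.61 ± 0.21 (limma adjusted p = 0.0512) and -0.79 ± 0.20 (limma adjusted p = 0.017, under 2-fold). CLDN12, at -0.89 ± 0.24, was under 2-fold as well. CDH24 (-0.05), CLDN5 (0.27), CLDN15 (0.31) and CLDN19 (0.47) had adjusted p-values from 0.154 to 0.862 by limma. A line's pair of arrays holds 1 of each arm, so the errors rest on the difference between the 2 knockdown differences and on the spread across genes, not on replicate arrays.

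**Figure D3:**
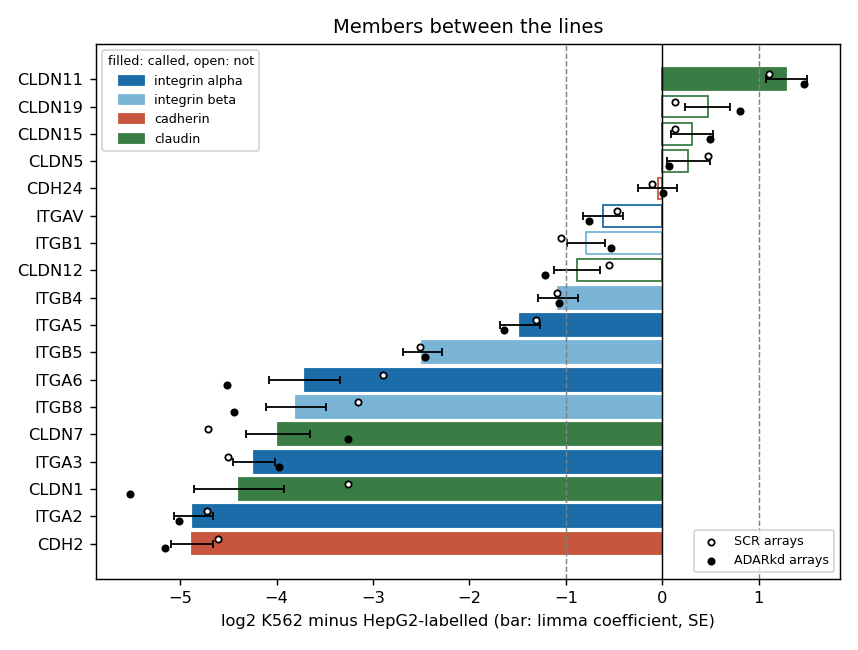
Log2 difference K562 minus HepG2 for the 18 genes kept in a line: bars with SE are limma coefficients over both arms (filled where called, open where not), circles the difference between the SCR arrays (open) and between the ADARkd arrays (filled), and dashed lines mark 2-fold. The 10 called genes to the left run from -4.88 for CDH2 to -1.08 for ITGB4, and CLDN11 at 1.29 is the 1 called to the right.

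The genes that work with these families were described next, from lists of their known partners. Of 29 measured focal adhesion genes, which link integrins to actin, 23 were kept on the arrays labelled HepG2. PXN, the scaffold paxillin, stood at 7.06 and 8.09 (1.03) and TNS1, a tensin, at 6.05 and 4.91 (-1.14); they were the 1 past 2-fold in each direction. Among all kept genes, 2.46% were at least 2-fold higher and 1.57% lower. The median of the 23 was 0.30, against 0.11 for all kept genes. CSRP1 (0.87) and ITGB1BP1, which binds the tail of the beta 1 chain (0.71), came next. In K562 17 were kept, with a median of -0.06 and 0 past 2-fold.

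Between the lines, 10 focal adhesion genes were called higher on the arrays labelled HepG2 and 1 in K562. In these directions, 14.7% and 10.3% of all 8028 genes fitted were called, and 8.25% and 5.85% of the 6204 kept in both lines. Of the 16 kept in both lines, CSRP1 (-3.77), FERMT2, a kindlin (-3.40), and CD151, a tetraspanin that binds laminin receptors (-1.09), were called higher on the arrays labelled HepG2 and the adaptor CRKL (1.88) in K562. The other 7 called, among them PARVA, TNS3 and FERMT1, were under the filter level in K562 and entered the fit only through the other line, so their sizes are uncertain. VCL, PTK2, ILK, ZYX and ACTN4, which sit at the core of these adhesions, were kept in both lines and not called.

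Of 25 measured adherens junction and desmosome genes, 12 were kept on the arrays labelled HepG2, with a median of 0.01 and 0 past 2-fold. The catenins CTNNB1 (-0.21), CTNNA1 (-0.34) and JUP (-0.11) stood a little lower in ADARkd, and the desmosomal plaque gene PKP2 (0.56) higher. In K562 9 were kept, with 0 past 2-fold and AFDN lowest at -0.47. Between the lines 9 were called higher on the arrays labelled HepG2 and AFDN (1.31) in K562, against 14.7% and 10.3% of all genes fitted. Among the 7 listed genes kept in both lines, 4 were called higher under the HepG2 label, against 8.25% of all such genes. Of the 9, PERP (-3.92), DSG2 (-1.51), JUP (-1.36) and CTNNA1 (-1.23) were kept in both lines. The other 5, among them DSP, desmoplakin, and NECTIN3, were under the filter level in K562, and AFDN was under it on the arrays labelled HepG2, so these sizes are uncertain.

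Of 17 measured tight junction genes other than claudins, 9 were kept on the arrays labelled HepG2. PATJ, a polarity scaffold of tight junctions, stood at 6.67 and 5.40, a difference of -1.28. It was the 1 past 2-fold, where 1.57% of all kept genes were at least 2-fold lower. PALS1, which binds PATJ, stood at 7.46 and 8.14 (0.67), MPDZ differed by -0.50 and TJP1, the ZO-1 scaffold that binds claudin tails, by 0.44. PARD3, PARD6B, PRKCI and PRKCZ, of the polarity complex, differed by -0.12 to 0.11. In K562 7 were kept and 0 were past 2-fold. PALS1 (-1.46), kept in both lines, was called higher on the arrays labelled HepG2, as were PATJ and MPDZ, under the filter level in K562. In K562 0 were called higher. PALS1 was 1 of the 7 listed genes kept in both lines, against 8.25% of all such genes called higher under the HepG2 label.

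Integrin ligands and counter-receptors differed in both directions on the arrays labelled HepG2. Of 19 measured, 9 were kept, 2 at least 2-fold higher and 3 lower, with a median of -0.31. Among all genes kept there, 2.46% were at least 2-fold higher and 1.57% lower, with a median of 0.11. CCN1, a matrix ligand of several integrins, stood at 6.86 and 9.22 (2.35) and its relative CCN2 at 5.69 and 6.79 (1.10). FN1, fibronectin, stood at 7.78 and 5.98 (-1.80), COL1A1 at 6.23 and 5.11 and NPNT, a ligand of the alpha 8 integrin, at 8.71 and 7.65 (-1.06). The receptor chain of fibronectin, ITGA5, differed by -0.06 on the same arrays. In K562 7 were kept with 0 past 2-fold. Between the lines 7 were called higher on the arrays labelled HepG2, of which THBS1 (-2.92) and LAMA5 (-1.52) were kept in both lines. These are 2 of the 3 listed genes kept in both, against 8.25% of all such genes. The rest of the 7 were under the filter level in K562 and entered the fit only through the other line. ICAM2, ICAM4 and ICAM5, counter-receptors of leukocyte integrins, were called higher in K562 and were under the filter level on the other arrays. Of all genes fitted, 14.7% were called higher on the arrays labelled HepG2 and 10.3% in K562.

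All 5 transcription factors listed as repressors of E-cadherin were measured. SNAI2 stood at 8.07 (SCR) and 7.37 (ADARkd) on the arrays labelled HepG2, ZEB1 at 5.77 and 6.04 and TWIST1 at 5.87 and 6.13, all 3 kept there with none past 2-fold. In K562 SNAI2 was dim (3.02 and 3.33) and ZEB2 stood at 6.73 and 6.52. Between the lines SNAI2 was called higher on the arrays labelled HepG2 and ZEB2 higher in K562, as were 14.7% and 10.3% of all genes fitted. Each of them was under the filter level in the other line, and CDH1 was under it in both.

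**Figure D4:**
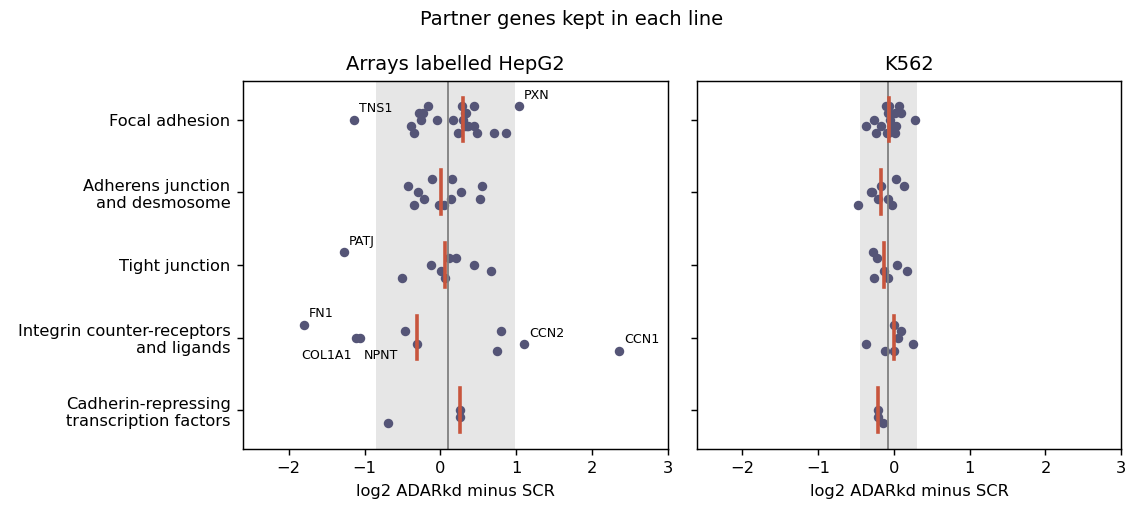
Log2 difference ADARkd minus SCR of the listed partner genes kept in each line, 1 point a gene, with the median of each list as a red bar; the grey band holds the central 95% of all kept genes and the grey line their median. On the arrays labelled HepG2 the ligands spread most widely, from FN1 at -1.80 to CCN1 at 2.35, and in K562 no point passes 2-fold.

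The promoters of the kept adhesion genes past 2-fold on the arrays labelled HepG2 are shown, 3 of them higher in ADARkd and 1 lower. Whether these genes vary together was not tested, since each arm is 1 array. The sequences are RefSeq's, build GRCh38.p14, and hold the 250 bases before a start site, 5′ to 3′ on the gene's strand; 36 of the 59 genes had an entry. Searched on both strands were TGANTCA (bound by AP-1), CAGGTG (the E-box bound by SNAIL and ZEB repressors), GGAATG (bound by TEAD), GGGCGG (bound by Sp1) and TATAAA (the TATA box), and matches of the first 3 on either strand (CACCTG is the E-box read on the other) are in capitals; in the windows shown no capitals overlap.

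CLDN1, chr3:190322447-190322696, minus strand: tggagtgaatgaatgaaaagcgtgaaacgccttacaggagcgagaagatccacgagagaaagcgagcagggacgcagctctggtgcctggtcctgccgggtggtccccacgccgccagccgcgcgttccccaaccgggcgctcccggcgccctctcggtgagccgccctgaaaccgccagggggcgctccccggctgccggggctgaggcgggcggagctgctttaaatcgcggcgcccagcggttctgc
ITGB8, chr7:20330650-20330899, plus strand: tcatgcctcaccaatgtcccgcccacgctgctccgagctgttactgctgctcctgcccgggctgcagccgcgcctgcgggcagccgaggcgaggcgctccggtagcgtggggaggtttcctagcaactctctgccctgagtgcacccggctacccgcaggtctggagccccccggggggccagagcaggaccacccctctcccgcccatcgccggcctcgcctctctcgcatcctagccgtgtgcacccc
ITGA6, chr2:172427086-172427335, plus strand: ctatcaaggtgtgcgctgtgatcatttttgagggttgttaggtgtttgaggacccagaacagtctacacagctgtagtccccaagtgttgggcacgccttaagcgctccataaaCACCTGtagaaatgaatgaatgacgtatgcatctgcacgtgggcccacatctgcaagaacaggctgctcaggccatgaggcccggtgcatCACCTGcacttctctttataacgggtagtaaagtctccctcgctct

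The windows of CLDN1 and ITGB8 hold none of the 3 motifs in capitals. They hold 28 and 21 CpG dinucleotides, more than 84.1% and 69.8% of all promoters of this length. ITGA6 has 2 starts in the table; the window before the outer one, shown above, holds 2 E-box matches and 8 CpG, and that before the inner one holds 30 CpG and none of the 3 motifs. Of 35114 promoters, 17.5% hold at least 1 E-box match and 2.53% at least 2, while 6.57% hold the AP-1 letters and 11.9% those of TEAD. The 36 genes have 57 such windows, of which 8 held an E-box match (14.0%), 6 an AP-1 match (10.5%) and 7 a TEAD match (12.3%). GGGCGG was in 22 of the 57 (38.6%, against 42.6% of all promoters), 2 times each in CLDN1 and ITGB8, and TATAAA in 5 (8.77%, against 10.7%), once in the outer ITGA6 window.

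CLDN7 also has 2 starts. The 250 bases before the inner one hold 4 E-box matches, as 0.122% of promoters do, at 174, 135, 20 and 9 bases before the start. The last 30 bases of that window show the pair next to the start.

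CLDN7, chr17:7262479-7262508, minus strand: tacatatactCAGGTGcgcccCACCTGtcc

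The window before the outer start of CLDN7 holds none. Which start was used in these cells was not measured, and a match is no evidence of binding. The promoter of CDH1 is not among the entries.

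The measured neighbours of CLDN1, ITGB8, ITGA6 and CLDN7 on the chromosome, by the order of protein-coding genes in RefSeq, were mostly dim. These genes were chosen for their large differences, so smaller differences beside them are no finding. CLDN16, a claudin of the kidney next to CLDN1, stood at 3.38 (SCR) and 3.42 (ADARkd) under the HepG2 label, and TMEM207 on its other side at 3.08 and 3.03. MACC1 and ABCB5, either side of ITGB8, differed by -0.12 and -0.07, and DLX2 and PDK1, either side of ITGA6, by 0.07 and -0.33. SLC2A4, next to CLDN7, differed by -0.50 at 4.55 and 4.06. Of these 7, PDK1 alone was kept on the arrays labelled HepG2. Among the 59 genes 10 pairs are direct neighbours, such as CDH1 and CDH3 or CLDN3 and CLDN4, and in 9 of the 10 neither gene was kept in a line.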

How the data were processed

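Per the labels, TRIzol-extracted total RNA was biotin-labelled and hybridised to Affymetrix exon arrays. The deposited values are an intensity per transcript cluster, positive and on a linear scale; the submitters' processing notes name RMA and hg18 without versions, and no source used here gives later steps. Of 17881 clusters, 14432 had 1 symbol, 2408 several and 1041 none; 14404 symbols were matched to RefSeq by Entrez number. A gene with several clusters took the brightest. The intensity was used as log2 with no offset. Members and lists were chosen with earlier results of these data known. Within a line the result is the log2 difference with no p-value. limma 3.58.1 in R 4.3.3 was used (lmFit, eBayes with trend, two-sided, Benjamini-Hochberg over all genes fitted, line and arm as terms). It was tried on simulated data with noise taken from the K562 pair. The SD of the differences over kept genes was 0.19 in K562 and 0.47 on the arrays labelled HepG2, a spread the simulation does not cover. Planned for naming were members kept and past 2-fold and the 12 largest differences each way between the lines. The plan also held the brightest 3 of each group by role and line, and members completing a heterodimer or neighbour pair. Of each partner list, it held up to 4 kept genes with the largest difference in each line. Some members under this rule that were kept in neither line, such as CDH18, CDH8, CDH16 and CDH22, had their levels given by range only. CDH12, CDH5, CLDN4, markers and further partner genes were picked with their values known. Figures: matplotlib 3.10.9. Alternatives were other filters, scalings, an offset, cluster means and no trend.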

Additional observations from a re-analysis of the deposited data

Results flagged for a closer look

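CLDN7 stood lower in ADARkd on the arrays labelled HepG2 (-1.41 on the log2 scale) and marginally higher in K562 (0.039), opposite directions in the 2 lines. The difference between the lines was not tested. The K562 levels were under the filter level, and that value ran from -0.12 to 0.06 over the other scalings and the offset. The value on the arrays labelled HepG2 ran from -1.55 to -1.31.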

How the results depend on the processing

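CLDN1, ITGA6, ITGB8 and CLDN7 were the kept genes past 2-fold on the arrays labelled HepG2 under every filter, scaling, offset and cluster setting tried; with no filter the lower genes were 2, CDH12 being added, and its difference was -1.20 with log2(value + 16). In K562 no adhesion gene passed 2-fold under any of these. Adhesion genes called higher in K562 than on the arrays labelled HepG2 were 2 with no filter (CDH18 added), 0 when the 75th percentile was the filter and 0 with log2(value + 16), against 1. Those called the other way were 9 to 11 over the alternatives that have a test. Over all kept genes, the counts at least 2-fold higher and lower on the arrays labelled HepG2, 175 and 112, were 75 and 41 under the 75th-percentile filter, 103 and 83 with log2(value + 16) and 227 and 199 with no filter. In K562 the count of 11 was 1, 7 and 30 under these 3 settings. Line calls over all genes, 830 and 1184, were 448 and 711 with the stricter filter. Of 104 single-gene differences under other scalings, offset and cluster means, 103 moved by less than the SD of the K562 differences and none past 2-fold changed sign; ITGA6, ITGB1, ITGA2, CLDN7 and CDH12 in K562 and ITGAV on the arrays labelled HepG2, all small, did. Each adhesion gene has 1 cluster annotated to it alone. The cluster means thus repeat its main value, in the 104 as well, and are no check on it. With 1 array a group, no replicate could be left out. Every value is limited by the number of arrays.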
